A study of Mus musculus with 6 samples.

Results

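The genes described here were 10 members of the bone morphogenetic protein (BMP) pathway and its targets: the ligands Bmp2, Bmp4 and Bmp6, the receptors Bmpr1a and Bmpr2, the effector Smad1, the target genes Id1, Id2 and Id3, and the antagonist Grem1. Every region that the authors' annotation assigned to these genes was kept, in CUT&Tag data of primary mouse cardiac fibroblasts. CUT&Tag uses an antibody to bring a transposase to chromatin, so that reads gather where the target of the antibody sits. The 6 libraries fall into a T set and an S set, read here as TAZ and SRF, the factors that the study profiled, although no label states the antibody. TAZ is a co-activator that reaches DNA through TEAD factors, and SRF binds the CArG box. A set has 3 libraries with 1 for each treatment, namely NC, the cytokine TGF-b, and TGF-b plus an siRNA that the labels call SiTAZ in the T set and SiSRF in the S set. In the paper itself the siRNA used for these assays is one against Piezo2, and these libraries do not settle which gene was targeted. The design text of the series mentions loss of Tet3 through a Cre virus before TGF-b, and the sample labels do not say which libraries carry it. Dose, time, strain and the number of animals behind a culture are not in the labels.

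Of 170890 T set regions compared between TGF-b and NC, 42 belonged to the members, and of 180118 compared between TGF-b with siRNA and TGF-b, 41 did. All 10 genes had a region in both of these comparisons. The S set gave 3 of 52723 regions (Bmp6, Bmpr2 and Id2) and 2 of 52579 regions (both in Smad1). Groups had 1 library each, so differences are between 2 libraries, none was tested against biological spread, and the 95% intervals cover counting error only. Values are a normalized read density, which the authors scaled between the 2 libraries of a comparison, and the whole reads recovered from it in the 2 kb window of each region. Ratios are log2 of the density in the later library over the earlier one, and a region is counted as higher or lower past 2-fold. A region says that reads gathered near a gene, not that the gene was transcribed. Depth was low: over all T set regions the median was 9 reads in NC and 5 in TGF-b in the first comparison, and 5 in TGF-b and 6 in the siRNA library in the second. Promoter regions were called at 4 of 6 fibroblast markers in each T set comparison, and at 1 of 6 and 0 of 6 in the S set. They were also called at 2 to 3 of 3 cardiomyocyte, 1 to 2 of 3 endothelial and 1 to 3 of 3 immune markers, so called regions did not separate cell types.

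BMP ligands bind a complex of type I receptors such as BMPR1A and the type II receptor BMPR2. The receptors phosphorylate SMAD1 and its relatives, which enter the nucleus with SMAD4 and switch on target genes, among which the ID genes are the best known. ID proteins are helix-loop-helix factors without a DNA-binding domain that hold back other factors of that family. TGF-b uses mainly SMAD2 and SMAD3 in fibroblasts and drives them towards matrix-producing myofibroblasts, while gremlin 1, the product of Grem1, traps BMP ligands outside the cell.

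Promoter sequences are shown for members with a motif match and for Bmp4, as an example under a T set region without a match. Smad1, whose promoter also lay partly under a T set region, had no match and is not shown. RefSeq promoters (build GRCm38.p6) matched 8 of the 10 members, with none for Id1 and Bmp2. The 250 bases before each start were searched on both strands for a CArG box, the TEAD motif GGAATG, the SMAD motif CAGACA, the AP-1 motif TGANTCA and the BMP-responsive motif GGCGCC, which reads the same on both strands. The last was present in 4 of 8 (Id2, Bmpr1a, Bmpr2 and Grem1) and in 9.59% of all 32851 promoters of that length. The TEAD motif was present in 1 of 8 (Id3) and in 12.6% of all promoters. The CArG box, the SMAD motif and the AP-1 motif were in 0 of 8, against 1.47%, 17.1% and 6.75% of all promoters. No match overlapped another. The matches are in capitals below, and Bmp4 had none. Stretches inside an annotated first exon were cut to 30 bases around the match (Bmpr2 and Id3) or left out, and all are written 5′ to 3′ on the strand of the gene.
Id2 (chr12:25096254-25096342, minus strand): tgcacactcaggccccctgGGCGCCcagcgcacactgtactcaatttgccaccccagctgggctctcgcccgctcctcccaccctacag
Bmpr1a (chr14:34502688-34502796, minus strand): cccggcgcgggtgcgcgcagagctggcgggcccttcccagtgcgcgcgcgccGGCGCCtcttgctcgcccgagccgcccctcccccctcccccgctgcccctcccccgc
Bmpr2 (chr1:59764162-59764191, plus strand): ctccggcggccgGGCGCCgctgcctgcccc
Grem1 (chr2:113758649-113758898, minus strand): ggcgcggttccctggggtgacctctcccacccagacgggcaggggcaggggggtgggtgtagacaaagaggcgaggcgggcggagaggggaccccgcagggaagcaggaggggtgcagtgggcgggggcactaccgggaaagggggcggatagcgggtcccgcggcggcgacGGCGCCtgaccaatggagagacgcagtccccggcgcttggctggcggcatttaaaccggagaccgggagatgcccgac
Id3 (chr4:136143607-136143636, plus strand): tcagcgcttcctCATTCCtcgcatccgagg
Bmp4 (chr14:46390670-46390919, minus strand): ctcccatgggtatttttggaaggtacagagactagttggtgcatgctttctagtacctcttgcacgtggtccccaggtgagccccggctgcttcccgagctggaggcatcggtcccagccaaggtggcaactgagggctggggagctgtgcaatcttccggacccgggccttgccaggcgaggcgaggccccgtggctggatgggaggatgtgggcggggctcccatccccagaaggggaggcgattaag

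Measured from the RefSeq start, the T set region at Id2 ran from -321 to 79 and held the GGCGCC match at -231 to -226. The T set region at Id3 ran from -206 to -42 and held CATTCC, the TEAD motif read on the other strand, at -203 to -198. The region at Bmp4 ran from -257 to -173. None of the regions at Bmpr1a, Bmpr2 or Grem1 covered their match. A match is a description of the letters in the window and not a measured site. The regions themselves carry coordinates that differ from GRCm38 for all 10 genes and were taken as GRCm39, the build named in the study's methods, so positions were joined through distances from the start of a shared transcript.

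The paper reports, from heatmaps of peaks, that SRF and TAZ associate more with chromatin under TGF-b. Past 2-fold, 6 of the 42 member regions were higher with TGF-b, beside 17.3% of all regions, and 15 were lower, beside 42.1%. The median log2 ratio was -0.50 in the members and -0.65 over all regions, and centring all regions on 0 turned the members' median to 0.15, with 9 regions higher and 4 lower. Among the 5 regions of the ID genes 2 were higher and 0 lower, with a median of 0.88, which centring moved to 1.54 with 3 higher. Windows overlap between the 2 Id1 regions and between the 2 Id3 regions, so these counts repeat reads. The other 7 genes had 37 regions, of which 4 were higher and 15 lower, with a median of -0.60 that centring moved to 0.06. Within 3 kb of a transcription start site (TSS), 3 of 11 member regions were higher and 2 were lower, beside 19.2% and 29.2% of all regions that near. Farther out, 3 of 31 were higher and 13 lower, beside 16.6% and 44.1% of regions with a gene at that distance. Centring turned the 3 and 13 into 5 higher and 3 lower. With 11 and 31 regions these are counts, and no share of the members is set apart from that of all regions. All 5 ID regions lie within 3 kb of a TSS, and all 31 farther out belong to the other 7 genes. Over all regions the median was -0.18 near a TSS and -0.77 farther out with a gene. The ID genes and the other genes thus also differ in distance.

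**Figure D1:**
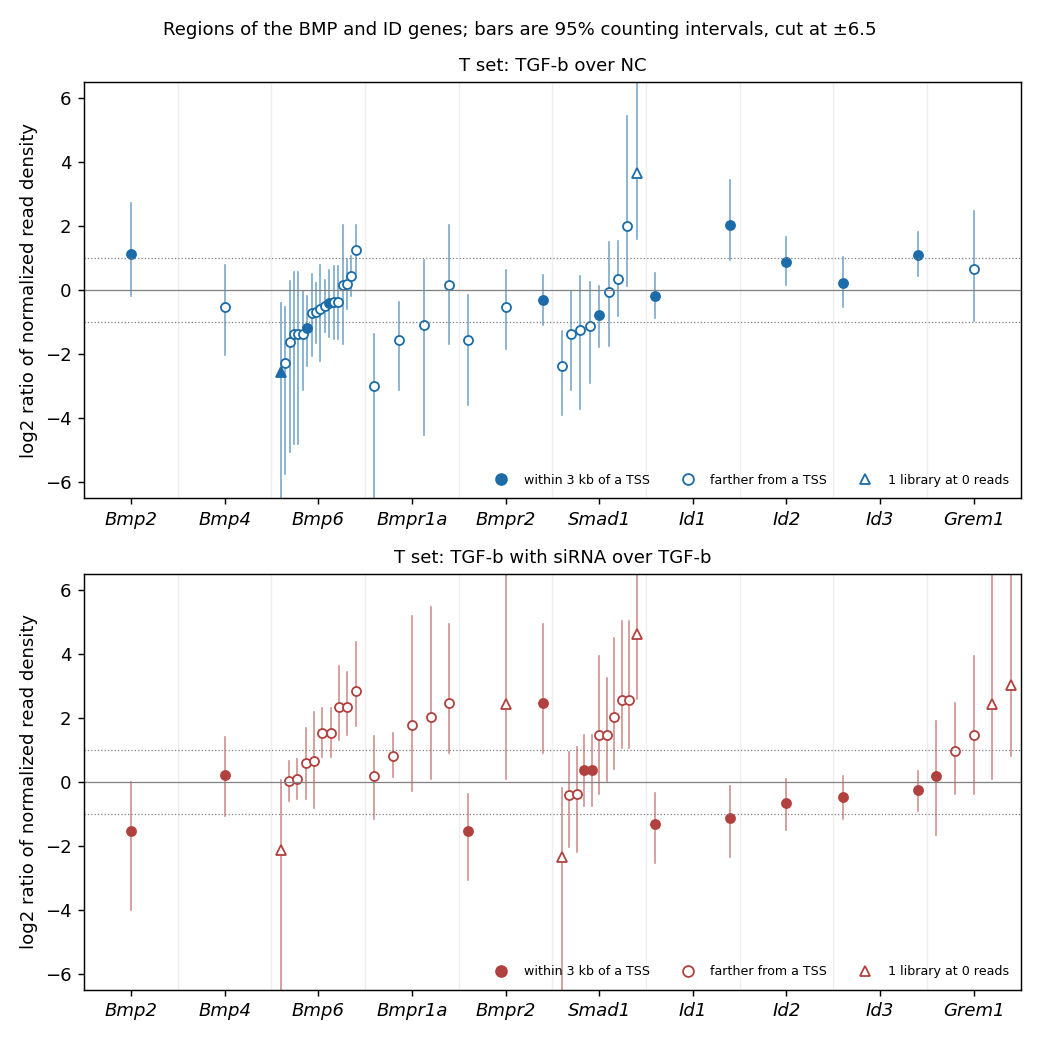
T set log2 ratio of normalized read density for every region of each gene (42 regions above, 41 below); filled points lie within 3 kb of a TSS, triangles have 1 library at 0 reads, bars are 95% counting intervals and dotted lines mark 2-fold. In the upper panel the ID regions reach 2.04 and none lies below -0.17. In the lower panel all 5 ID regions, whose windows overlap at Id1 and at Id3, lie below 0. Most Bmp6, Bmpr1a, Smad1 and Grem1 regions lie above 0 there.

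Direction went with the calling of peaks. Of the 27 member regions called in NC only, 0 were higher and 15 lower, beside 59.2% lower among all such regions. Of the 11 called in TGF-b only, 5 were higher and 0 lower, beside 59.7% higher among all such regions. The remaining 4, called in both libraries, lay at Bmp6, Bmpr2, Id1 and Smad1, and 1 of them (Bmp6) was higher and 0 lower, beside 11.35% and 11.97% of all such regions. A region called in 1 library only entered the table through that library, so where it was high in that library its fold and interval are a description of the reads and no support for a difference.

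Id1 had 2 T set regions. The region over its 5′ UTR (chr2:152578130-152578249, 18 bp past the TSS) held 6 reads in NC and 26 in TGF-b. The densities were 3.39 and 13.9, a 4.10-fold difference with a log2 ratio of 2.04 (95% interval 0.96 to 3.45). The region at -1103 bp (chr2:152576928-152577208) held 34 and 30 reads, with a log2 ratio of -0.17 (-0.87 to 0.53). The windows of these 2 regions overlap, and the first was called in TGF-b only and the second in both libraries. Among 16211 regions near a TSS with 20 or more reads, 3.6% were at least as high as the Id1 5′ UTR region.

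Id2 had a single region over its promoter (chr12:25146012-25146412, at -121 bp), with 22 reads in NC and 41 in TGF-b. The densities were 11.4 and 21.1 and the log2 ratio was 0.88 (0.17 to 1.65), short of 2-fold. Id3 had a promoter region (chr4:135870927-135871091, at -166 bp) with 24 and 53 reads. Its densities were 12.5 and 27.0, a 2.16-fold difference with a log2 ratio of 1.11 (0.45 to 1.83). A further Id3 region in intron 2, 870 bp past the TSS, held 24 and 28 reads and a ratio of 0.24 (-0.53 to 1.03). Its window overlaps that of the promoter region. Of the 16211 regions near a TSS, 20.2% and 14.4% were at least as high as those of Id2 and Id3. All regions called in TGF-b only had a median of 1.41, above the Id2 and Id3 promoter ratios and below that of the Id1 5′ UTR region. The 3 regions at the starts of Id1, Id2 and Id3 were all called in the TGF-b library only, so each entered the comparison through the library in which it was high, and their ratios and intervals are a description of the reads and no support for a difference. All 5 ID ratios kept their sign with the authors' scaling undone, and centring all regions moved the Id1 region at -1103 bp to 0.49.

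Among the ligands, Bmp2 had 1 region (chr2:133392179-133392295, at -1842 bp), with 5 reads in NC and 11 in TGF-b. Its log2 ratio of 1.13 had an interval of -0.19 to 2.73 that includes 0. Bmp4 had 1 region in exon 4 with 10 and 6 reads and a ratio of -0.52 (-2.01 to 0.80). Bmp6 had 18 regions, from its promoter along intron 1, the largest number of any member. Of these, 1 was higher, 7 were lower and the median was -0.64. After centring, most of the 7 were within 2-fold. The higher region (chr13:38594292-38594486) held 19 reads in NC and 46 in TGF-b, densities of 9.95 and 23.6 and a log2 ratio of 1.25 (0.53 to 2.05). Its neighbour (chr13:38594659-38594867), whose window overlaps, held 35 and 48 reads and a ratio of 0.43 (-0.18 to 1.07), or 1.08 after centring. Nearer the start, the region at -1675 bp held 17 and 12 reads (-0.39, -1.47 to 0.62) and the region at 2799 bp held 23 and 9 reads (-1.19, -2.36 to -0.19). The latter was within 2-fold after centring, at -0.53. A region at -770 bp from the start of a shorter transcript inside the gene held 6 reads in NC and 0 in TGF-b. With the 0 set to a floor of 3 reads, it was 1.48-fold lower.

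At the receptors 4 of 7 regions were lower and 0 higher, beside the 42.1% lower of all regions, and 1 of 7 was lower after centring. Bmpr1a, a type I receptor, had 4 regions, of which 3 were lower and 0 higher. The deepest, in intron 1 (chr14:34190530-34190617), held 18 reads in NC and 5 in TGF-b, a 2.93-fold lower density with a log2 ratio of -1.55 (-3.11 to -0.36). Its neighbour in the same intron (chr14:34191049-34191145) held 17 and 1 reads, a ratio of -3.01 (-6.48 to -1.36). With the 1 read set to a floor of 3 the ratio was -2.01. The windows of these 2 regions overlap, so they share reads. All 4 Bmpr1a regions were called in NC only, a class in which 59.2% of all regions were lower. Bmpr2 had 3 regions, 1 of them lower. The region 1399 bp past its TSS (chr1:59803833-59804084) held 29 and 23 reads and a ratio of -0.29 (-1.09 to 0.47). The deepest of its other regions held 13 and 8 reads in intron 3, with a ratio of -0.53 (-1.83 to 0.64).

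Smad1, the nuclear effector, had 9 regions, 2 higher and 4 lower, with a median of -0.78. The region over its 5′ UTR (chr8:80126016-80126186) held 24 reads in NC and 13 in TGF-b, densities of 12.2 and 7.15 and a ratio of -0.78 (-1.78 to 0.13). The deepest of the others (chr8:80058337-80058445) lies in an intron of Gm4890, downstream of Smad1, and held 32 and 5 reads, a 5.18-fold lower density with a ratio of -2.37 (-3.91 to -1.28). It was called in NC only, as were the other 3 lower Smad1 regions. After centring it stayed past 2-fold lower, at -1.72, and those 3 did not. The 2 higher regions lie in intron 1 and rest on few reads, 0 in NC and 10 in TGF-b in the first and 1 and 6 in the second. With the 0 set to a floor of 3 reads the first was 3.20-fold higher, and the second had a ratio of 2.01 (0.13 to 5.45). Both were called in TGF-b only. The antagonist Grem1 had 1 region, in an intron of the neighbouring Scg5, with 4 and 6 reads and a ratio of 0.65 (-0.97 to 2.47). Over the 42 member regions, the interval lay above 0 in 6, below 0 in 9 and included 0 in 27, beside 14.8% above and 31.1% below among all regions.

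The study asked if Piezo2 is needed to pass the fibrotic signal to these factors, and reports weaker chromatin association without Piezo2. Past 2-fold, 19 of 41 member regions were higher with the siRNA, beside 49.7% of all regions, and 6 were lower, beside 16.2%. The median log2 ratio was 0.82 in the members and 0.97 over all regions, and centring all regions on 0 turned the members' median to -0.15, with 13 regions higher and 11 lower. Of the 5 ID regions 0 were higher and 2 lower, with a median of -0.67. The line undone gave 3 lower and a median of -1.14, and centring gave 5 lower and a median of -1.64. Both settings move these 5 ratios down, so the larger counts follow from that shift. Windows overlap between the 2 Id1 regions and between the 2 Id3 regions, so the counts repeat reads. The other 7 genes had 36 regions, 19 higher and 4 lower, with a median of 1.45 that was 0.48 after centring. Within 3 kb of a TSS 1 of 12 member regions was higher and 4 were lower, beside 34.5% and 19.6% of all regions that near, and the median was -0.37 against 0.33. Farther out 18 of 29 were higher and 2 lower, beside 51.4% and 15.6%. All 5 ID regions lie within 3 kb of a TSS, and all 29 farther out belong to the other 7 genes. Over all regions the median was 0.33 near a TSS and 1.04 farther out with a gene, so these 2 groups of genes also differ in distance. Of the 26 member regions called in the siRNA library only, 16 were higher and 0 lower, beside 67.6% higher among all such regions. Of the 12 called in TGF-b only, 6 were lower and 3 higher, beside 58.5% lower and 5.89% higher among all such regions. The 3 higher ones were the Bmp6 regions described below, with 7 to 20 reads in TGF-b. These comparisons share the TGF-b library with the first, so a high or low TGF-b count enters both ratios with opposite sign.

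At Id1, the 5′ UTR region held 26 reads in TGF-b and 8 with the siRNA, densities of 11.5 and 5.29 and a 2.17-fold lower density. The log2 ratio was -1.12 (-2.35 to -0.12). The region at -1103 bp went the same way, with 30 and 8 reads, densities of 13.2 and 5.29 and a ratio of -1.32 (-2.54 to -0.34). Among 13330 regions near a TSS with 20 or more reads, 17.4% and 13.5% were at least as low as these. The Id2 promoter region held 41 and 18 reads, densities of 17.8 and 11.2 and a ratio of -0.67 (-1.503 to 0.08). The Id3 promoter region held 53 and 27 reads, with a ratio of -0.47 (-1.16 to 0.17), and a region in exon 1 held 53 and 31 reads, with a ratio of -0.27 (-0.93 to 0.34). The windows of these 2 Id3 regions overlap. The intervals of Id2 and Id3 include 0, and those of both Id1 regions do not. Both Id1 regions and the Id2 region were called in TGF-b only here, and thus came in through the library in which they were high, so their intervals are a description as well. Undoing the authors' scaling and centring both lower all 5 ID ratios in this comparison, so their sign could not change.

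Bmp2 held 11 reads in TGF-b and 2 with the siRNA, a ratio of -1.55 whose interval, -4.02 to -0.0006, reaches almost to 0. The Bmpr2 region 1399 bp past the TSS held 23 and 5 reads, densities of 10.2 and 3.52, and was 2.90-fold lower with a ratio of -1.54 (-3.09 to -0.39). Bmp2, Id1 and Bmpr2 were thus the members with a lower region near a start, and each of these regions was called in TGF-b only. Of the 13330 regions near a TSS, 10.2% were at least as low as that of Bmpr2. The other Bmpr2 region assigned within 3 kb of a TSS lies at -2702 bp from a short transcript inside the gene, in intron 7, and held 2 and 11 reads, a ratio of 2.45 (0.90 to 4.92). Its remaining region, in a 3′ UTR (chr1:59910191-59910270), held 0 and 3 reads, both at or under the floor, so no fold is given. By density alone Bmpr2 had 2 higher regions and 1 lower of 3, and the 2 higher ones were called in the siRNA library only. The 3′ UTR region is among them and was within 2-fold against the floor. The Bmp4 promoter region (chr14:46628299-46628383, at -215 bp) held 11 and 9 reads and a ratio of 0.20 (-1.06 to 1.40). At Smad1, the 5′ UTR region held 13 and 12 reads with a ratio of 0.36 (-0.76 to 1.45), and a further region at 265 bp shared its reads. Grem1 held 5 and 4 reads 1668 bp past its TSS, with a ratio of 0.19 (-1.65 to 1.91).

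Away from the starts, the 18 of 29 regions higher with the siRNA stand beside a whole table that was higher there too (51.4% of regions, median 1.04), and centring left 12 higher and 4 lower. Bmp6 had 10 regions, 5 higher and 1 lower, with a median of 1.08. Its region at chr13:38586410-38586567 held 5 reads in TGF-b and 30 with the siRNA, densities of 2.55 and 18.2 and a 7.12-fold difference (log2 ratio 2.83, 1.73 to 4.37). It was called in the siRNA library only, a class in which 67.6% of all regions were higher, so it entered through the library in which it was high. The regions at chr13:38606671-38606797 and chr13:38608150-38608303 held 10 and 39 reads and 7 and 28 reads, with ratios of 2.33 (1.45 to 3.42) and 2.32 (1.302 to 3.63), and both were called in TGF-b only, the library in which they were low. The windows of these 2 regions overlap, so they share reads. The region 4938 bp past the start held 20 and 42 reads (1.51, 0.79 to 2.31, and 0.54 after centring), as did an adjacent region 4809 bp past the start whose window holds the same counts. By contrast, the 2 neighbouring regions that had been highest in TGF-b held 46 and 35 reads and 48 and 35 reads, with ratios of 0.10 (-0.54 to 0.71) and 0.04 (-0.60 to 0.65). Both depended on the scaling and lay at -0.88 and -0.94 after centring, below those intervals.

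Bmpr1a had 5 regions, 3 higher and 0 lower. The deepest is annotated as downstream of a gene, at -5806 bp from a Bmpr1a TSS (chr14:34231040-34231168) and held 29 and 37 reads, with a ratio of 0.82 (0.13 to 1.52) that was 0.34 with the line undone and -0.15 after centring. The 3 higher regions held 1 to 2 reads in TGF-b and 4 to 11 with the siRNA, and all 5 were called in the siRNA library only. Smad1 had 11 regions, 6 higher and 1 lower, with a median of 1.45. The densest beyond 3 kb was a 3′ UTR region (chr8:80069614-80069686) with 0 reads in TGF-b and 17 with the siRNA, 6.13-fold higher with the 0 set to a floor of 3 reads. It and the other 5 higher Smad1 regions were called in the siRNA library only. Grem1 had 5 regions, 3 higher, and none of its libraries exceeded 9 reads at any of them. The 3 higher ones include a region with 0 and 3 reads, which was within 2-fold against the floor. Over the 41 member regions, the interval lay above 0 in 17, below 0 in 5 and included 0 in 19, beside 38.9% above and 11.4% below among all regions. Among the 18 with 20 or more reads it lay above 0 in 6, below 0 in 3 and included 0 in 9, beside 40.5% and 13.6% of all regions of that depth.

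**Figure D2:**
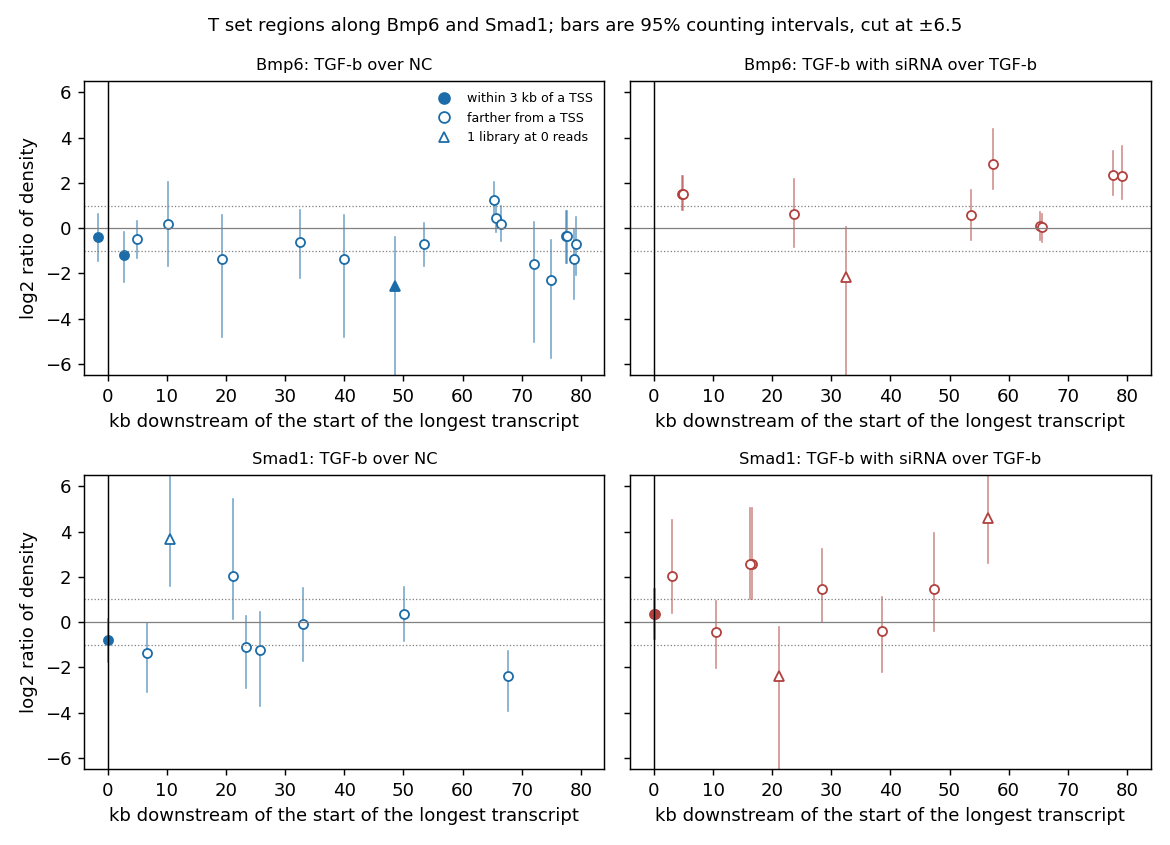
T set log2 ratio of density against distance from the start of the longest transcript, in kb, for the regions of Bmp6 (18 and 10) and Smad1 (9 and 11); symbols and bars are as in the plot of ratios by gene. Apart from the triangles, which are placed at reads plus 1 and are no measured ratio, Bmp6 regions range from -2.27 to 1.25 in TGF-b over NC and from 0.04 to 2.83 in siRNA over TGF-b, and Smad1 regions from -2.37 to 2.01 and from -0.42 to 2.57.

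Through the 3 T set libraries, 16 member regions of 8 genes were present in both comparisons, which is 16 of 42 and 16 of 41, beside 34.3% and 32.6% of all regions of these comparisons, and their TGF-b reads were identical in both. In NC, TGF-b and TGF-b with siRNA in turn, the Id1 5′ UTR region held 6, 26 and 8 reads. The Id2 promoter region held 22, 41 and 18 reads, and that of Id3 held 24, 53 and 27. At these 3 starts the TGF-b library had the highest count, and the NC and siRNA counts differed by at most 4 reads. Calling favoured that order: against NC all 3 were called in TGF-b only, and against the siRNA library those of Id1 and Id2 were too, while that of Id3 was called in both. The Id1 region at -1103 bp held 34, 30 and 8 reads and the Bmpr2 region 29, 23 and 5, so that at both the siRNA library alone was low. The Bmp2 region held 5, 11 and 2 reads.

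**Figure D3:**
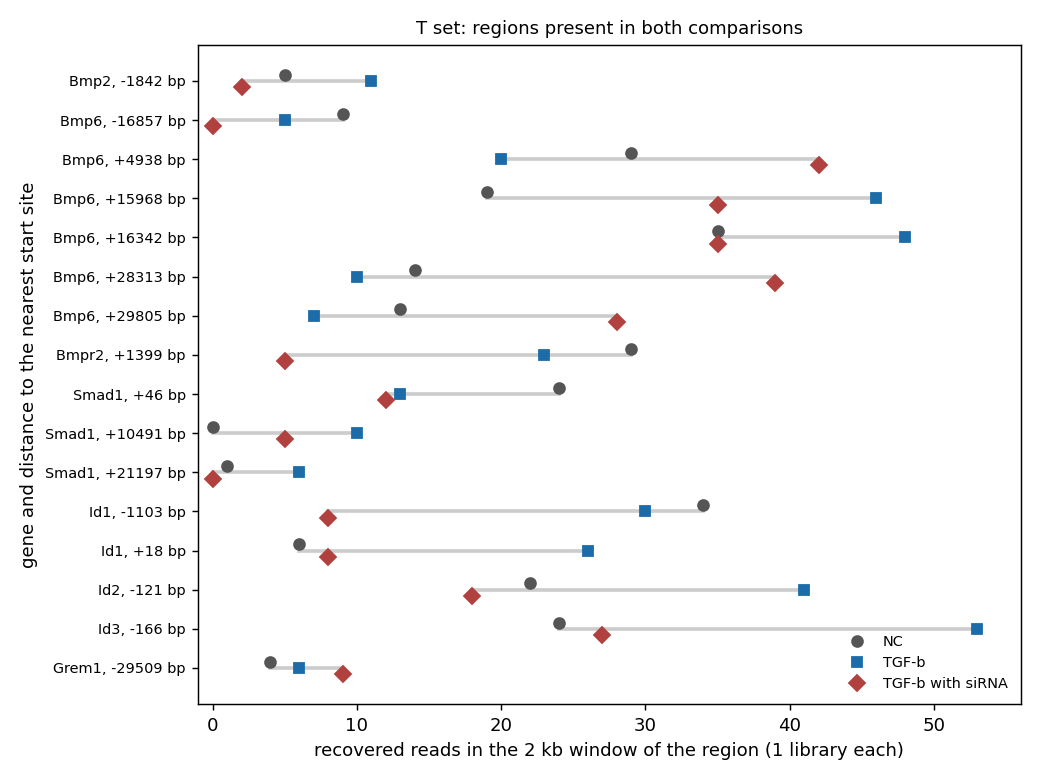
Recovered reads in NC, TGF-b and TGF-b with siRNA (1 library each) at the 16 T set regions present in both comparisons, ordered by gene with the distance to the nearest start site. At the starts of Id1, Id2 and Id3 the TGF-b library is highest (26, 41 and 53 reads), and at 3 Bmp6 intron regions it is the lowest (20, 10 and 7 reads).

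In intron 1 of Bmp6, 3 regions had their lowest count in TGF-b, with 29, 20 and 42 reads, 14, 10 and 39 reads, and 13, 7 and 28 reads. Its regions at 15968 and 16342 bp from the nearest TSS held 19, 46 and 35 reads and 35, 48 and 35 reads, and its region at -16857 bp held 9, 5 and 0. Smad1 held 24, 13 and 12 reads over its 5′ UTR, and 0, 10 and 5 reads and 1, 6 and 0 reads in intron 1. Grem1 held 4, 6 and 9 reads. Reads are unscaled here and total library depth was not used, so an order of counts across libraries is a description of the window and not a measured change.

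In the S set the members had few regions, and none overlapped a T set region: 0 of 5 against 0 of 67 distinct regions, beside 17.3% of all distinct S set regions and 4.71% of all distinct T set regions. The nearest T set region was 806 bp away at Bmp6, 1036 and 1403 bp at Smad1, 2417 bp at Id2 and 7170 bp at Bmpr2, centre to centre. Between TGF-b and NC, 0 of 3 regions were higher and 1 was lower, beside 17.4% and 26.7% of all S set regions, and 0 were lower with the authors' scaling undone or after centring. The median of -0.34 was 0.26 with the scaling undone. The Id2 region (chr12:25148581-25148677, at -1490 bp) held 5 reads in NC and 9 in TGF-b with a ratio of 0.15 (-1.25 to 1.77). The Bmp6 region held 5 and 3 reads (-1.19, -3.26 to 0.58) and the Bmpr2 region, in exon 11, held 4 and 5 reads (-0.34, -2.06 to 1.502). All 3 intervals include 0. Between TGF-b with siRNA and TGF-b, 2 of 2 regions were higher and 0 lower, beside 15.1% and 27.8%, and 1 of 2 was higher with the scaling undone. These are introns of Smad1 with 9 and 18 reads (1.01, -0.04 to 2.21) and 3 and 10 reads (1.59, 0.11 to 3.62). No member region was present in both S set comparisons, and Id1, Id3, Bmp2, Bmp4, Bmpr1a and Grem1 had no S set region in either.

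Other genes of the pathway, a list of 37, had their regions counted in the same way. In the T set they had 186 regions in 33 genes between TGF-b and NC, with 26 higher, 73 lower and a median log2 ratio of -0.61, beside 17.3% and 42.1% of all regions. Between siRNA and TGF-b they had 183 regions in 34 genes, with 92 higher, 27 lower and a median of 1.03, beside 49.7% and 16.2% of all regions. In the S set, 45 regions in 17 genes gave 6 higher and 16 lower with a median of -0.57, and 39 regions in 18 genes gave 10 higher and 6 lower with a median of 0.44. Of all S set regions 17.4% were higher and 26.7% lower in the first comparison and 15.1% and 27.8% in the second, with medians of -0.20 and -0.21. Near a TSS in the T set, 6 of 38 were higher and 8 lower with TGF-b, and 14 of 35 were higher and 5 lower with the siRNA, beside 19.2% and 29.2%, and 34.5% and 19.6%, of all regions near a TSS. The BMP-binding regulator gene Bmper had the most T set regions with TGF-b against NC, 25, of which 1 was higher and 12 lower. Its deepest region held 36 and 24 reads there (-0.55, -1.31 to 0.17) and 24 and 31 reads between TGF-b and siRNA (0.83, 0.08 to 1.60). Bmpr1b, a BMP type I receptor, had 20 and 28 T set regions, 2 higher and 11 lower with TGF-b and 18 higher and 3 lower with the siRNA. Its densest region held 65 reads in NC and 1 in TGF-b, in an intron, a ratio of -4.94 (-8.43 to -3.40), and a 5′ UTR region held 9 and 14 reads between TGF-b and siRNA (1.05, -0.08 to 2.27). Smurf1, a ubiquitin ligase for BMP SMADs, had 3 higher and 3 lower of 14 regions with TGF-b and 7 higher and 1 lower of 16 with the siRNA. Its densest region, at the promoter, held 83 and 36 reads with TGF-b (-1.22, -1.80 to -0.68), and the densest in the second comparison held 42 and 33 (0.14, -0.52 to 0.78). The ligand gene Bmp7 had 5 higher and 3 lower of 11 regions and then 4 higher and 2 lower of 14. Its densest regions held 25 and 1 reads (-3.55, -7.04 to -1.95) and 15 and 9 reads (-0.22, -1.44 to 0.89).

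In the S set, between TGF-b and NC, the densest regions held 10 and 14 reads at Bmpr1b (-0.12, -1.22 to 1.06) and 29 and 20 reads at Bmp7 (-1.06, -1.89 to -0.27). Those of Bmper and Acvr1 held 8 and 1 reads (-2.78, -6.23 to -0.99) and 13 and 0 reads. Between siRNA and TGF-b they held 19 and 14 reads at Bmpr1b (-0.35, -1.35 to 0.61) and 9 and 18 at Bmper (1.01, -0.04 to 2.21). The Bmp3 and Acvr2b regions held 3 and 8 reads (1.305, -0.25 to 3.35) and 17 and 23 reads (0.47, -0.40 to 1.39).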

How the data were processed

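CUT&Tag libraries of 2 sets with 3 treatments each were compared within 4 deposited tables. Per the study's methods section, the authors aligned reads with Bowtie2 to GRCm39 and called peaks with Masc2, and the submitters' processing notes name mm10 and BWA 0.7.12. Member coordinates did not match GRCm38. The deposited signal is a read density, (reads + 1) times 0.5 per 2 kb window, which the authors rescaled along a line between 2 libraries. Undoing that line gave whole reads within 0.1 in 99.98% to 99.99% of regions. The deposited tables also hold the authors' log2 fold and p-values, which were not used. Log2 ratios were taken from the densities, with Wilson 95% intervals of the read share, using Python 3.11.15, numpy 2.4.6 and pandas 2.3.3. Read recovery was tested on simulated data. Each group had 1 library, so no test was made.

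All regions assigned to the 10 genes were used. Those within 3 kb of a TSS are named in the text, with each gene's densest other region and up to 6 more per comparison that were 2-fold apart with 20 or more reads and an interval clear of 0. Of the other pathway genes, the densest region of up to 4 genes with the most regions was named. Other regions in the text were chosen after their values were seen. The members and lists were chosen with earlier results of these data known. Alternatives were the line undone, centring, a floor of 3 reads, 20 or more reads, 1 region per window group, 1.5-fold and 4-fold thresholds, an overlap of 50% and a promoter distance of 1 kb.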

Additional observations from a re-analysis of the deposited data

How the results depend on the processing

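All values compare single libraries, windows of neighbouring regions overlap (34 separate groups among the 42 and among the 41 T set regions), and 11 of 42 and 16 of 41 regions had a library with 3 or fewer reads, so depth limits most single regions. Centring on the median of all regions (-0.65, 0.97) turned the sign of the members' median, to 0.15 in T set TGF-b against NC (lower regions 4) and to -0.15 in siRNA against TGF-b (lower 11), by its own shift. In T set TGF-b against NC, lower regions numbered 9 with reads of 3 or fewer set to 3, 3 higher and 3 lower regions had 20 or more reads, and 3 and 4 passed 4-fold. In T set siRNA against TGF-b, 5 higher and 3 lower had 20 or more reads and 2 lower passed 4-fold. In S set TGF-b against NC, the median was 0.26 with the line undone and -0.14 after centring, and lower regions numbered 0 with the line undone, after centring and at 4-fold. For the siRNA in the S set, the median ratio was 1.19 with the line undone, 1.51 after centring and 1.01 with 20 or more reads. Higher regions there numbered 1 with the line undone, 1 with 20 or more reads and 0 at 4-fold. The other 54 values of the summaries kept their direction and stayed within 1.5 times or their interval. Of the single regions named by rule, 9 values left the counting interval, all after centring, 123 did not, and 0 reversed the sign of a 2-fold difference. Other regions in the text are not in that count, such as a Bmp6 region of the siRNA comparison that left its interval at -0.88 after centring. Some regions named by rule lost or gained the 2-fold call after centring. Examples are the Bmp6 region at 2799 bp (-1.19 to -0.53) and the Id2 promoter region with the siRNA (-0.67 to -1.64). No paired analysis was possible because each group had 1 library.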
